A study of Mus musculus with 8 samples.

Results

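The phagocyte NADPH oxidase genes Cybb, Cyba, Ncf1, Ncf4 and Rac2 were examined for chromatin accessibility in type 1 conventional dendritic cells (cDC1s) that had infiltrated tumours. Wild type mice carried B16-OVA tumours, grown from a melanoma line that makes ovalbumin, a protein whose peptides can be followed as an antigen, and the cells were isolated by sorting. The groups were tumours at day 21 after inoculation, with 4 libraries, and tumours at day 7, also with 4 libraries. No further genotype or agent separated the groups. The labels do not state the age of the mice, nor do they say whether a library came from 1 mouse or from pooled mice. The p-values below therefore measure the spread between these libraries, which may be technical in part. ATAC-seq uses a transposase that cuts open chromatin, so a count reports how accessible a stretch of DNA was and not how much transcript or protein the gene made.

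A region was assigned to a gene when its centre lay in the gene body, or within 50 kb of it with that gene's end as the nearest end of any protein-coding gene. This gave 39 regions of the 128057 in the series, namely 13 for Cybb, 2 for Cyba, 5 for Ncf1, 9 for Ncf4 and 10 for Rac2. Regions that overlapped a window of 1 kb on each side of an annotated gene end were called gene-end regions, and the other 33 were called distal. There were 6 gene-end regions, of which Cyba, Ncf1 and Ncf4 had 1 each and Rac2 had 3. All but 1 of the 39 had enough counts to be tested. Accessibility is given as CPM, that is, counts scaled to a common library size, and changes are log2 fold changes of day 21 over day 7 with their standard error (SE).

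The phagocyte oxidase moves electrons from NADPH across the phagosome membrane and makes superoxide from oxygen. Its catalytic subunit NOX2, encoded by Cybb, sits in the membrane with its partner encoded by Cyba, and activity begins when cytosolic subunits, among them those encoded by Ncf1 and Ncf4, join them together with a GTP-bound Rac protein. In dendritic cells the reaction consumes protons inside the phagosome, which opposes acidification by the vacuolar proton pump, slows the breakdown of captured proteins and preserves peptides for cross-presentation to CD8 T cells. Cybb transcription in myeloid cells is known to depend on the ETS factor PU.1 and on the interferon regulatory factor IRF8, and IRF8 is also a defining factor of cDC1s.

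The promoter stretches of the 3 genes found in the promoter table are shown because an ATAC-seq region covered the start site of each, and 1 of these regions changed between the days. They are RefSeq sequences of GRCm38.p6, from 250 bases before to 50 bases after the listed start, and all 3 read from the minus strand. Cybb lies at chrX:9469275-9469574, Cyba at chr8:122432891-122433190 and Ncf1 at chr5:134229576-134229875. Capitals mark matches on either strand to the motifs searched, which were the PU box (GAGGAA), the ETS-IRF composite element, the interferon-response type IRF element (a doubled GAAA with a pair of free bases between), an AP-1 site (TGANTCA), a GC box (GGGCGG) and a CCAAT box (CCAAT).
Cybb: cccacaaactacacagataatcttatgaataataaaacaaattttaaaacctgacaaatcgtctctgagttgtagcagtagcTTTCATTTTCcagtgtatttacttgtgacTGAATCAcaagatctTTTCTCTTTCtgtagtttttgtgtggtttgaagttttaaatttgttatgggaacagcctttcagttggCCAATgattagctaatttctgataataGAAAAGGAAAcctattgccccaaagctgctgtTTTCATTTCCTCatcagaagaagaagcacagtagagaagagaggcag
Cyba: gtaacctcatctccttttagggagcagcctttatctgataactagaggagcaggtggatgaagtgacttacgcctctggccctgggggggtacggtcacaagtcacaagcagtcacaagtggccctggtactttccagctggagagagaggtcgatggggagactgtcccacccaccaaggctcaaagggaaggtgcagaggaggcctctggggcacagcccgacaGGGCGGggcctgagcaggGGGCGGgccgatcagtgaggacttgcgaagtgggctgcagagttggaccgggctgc
Ncf1: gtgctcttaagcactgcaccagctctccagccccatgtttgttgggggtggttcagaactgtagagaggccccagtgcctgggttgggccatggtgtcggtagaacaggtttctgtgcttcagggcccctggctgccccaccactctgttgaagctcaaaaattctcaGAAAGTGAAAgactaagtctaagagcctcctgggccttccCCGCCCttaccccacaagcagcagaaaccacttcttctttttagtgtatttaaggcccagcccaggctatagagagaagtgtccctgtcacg

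The Cybb stretch held 3 IRF element matches, which began at -168, -124 and -29 from the start site, where the first transcribed base is +1. It also held an ETS-IRF composite match that began at +4 and overlapped the only PU box match, and it had 1 AP-1 match and 1 CCAAT match. The Ncf1 stretch had 1 IRF element match at -82 and 1 GC box match, and the Cyba stretch had 2 GC box matches at -24 and -6 and no other match. Over 32544 mouse promoters of the same length, 3.45% held an IRF element match and 2.73% held the ETS-IRF composite. The PU box was found in 28.1% of them, the AP-1 site in 7.79%, the GC box in 35.9% and the CCAAT box in 37.4%. The Cybb stretch was 35.3% G and C, against 60.7% for Cyba, 54.0% for Ncf1 and a median of 53.0% over all promoters. These matches describe letters in these windows and say nothing of whether a factor was bound.

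Of the 39 regions a few passed as lower at day 21, at a share close to that over all regions. In the main test no single region passed as a gain. Of 38 tested regions, 5 were lower at day 21 and 0 were higher by edgeR's quasi-likelihood test with Benjamini-Hochberg adjustment over all regions, at a threshold of 0.05. DESeq2 called 4 lower and 0 higher, limma-voom 5 and 0, and at an unadjusted edgeR p under 0.05 the counts were 5 lower and 5 higher. With trended offsets a region of Ncf4 and a region of Rac2 passed as higher (0.21 and 1.28, edgeR adjusted p = 0.0055 and 0.0371). The Ncf4 region also passed without day 21 replicate 1 (0.19, edgeR adjusted p = 0.0414). The adjusted edgeR rule called 9.86% of all 121865 tested regions lower and 9.5% higher. The share called lower among the members, 13.2%, was close to that background. The 5 lower regions were the gene-end region of Cyba, 2 distal regions of Ncf1 and 2 distal regions of Rac2. The median log2 change of the 38 regions was -0.04, against 0.0017 over all regions. At 6 member regions day 21 and day 7 libraries were fully separated, with day 21 above at 3 and below at 3, and 19.8% of all tested regions were separated in this way. Accessibility summed over all member regions was 406 ± 30.8 CPM at day 21 and 414 ± 6.72 CPM at day 7 (SD, n = 4 libraries each). The largest of these sums, 450 CPM, belonged to day 21 replicate 3, and the other day 21 libraries lay between 380 and 399 CPM.

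**Figure D1:**
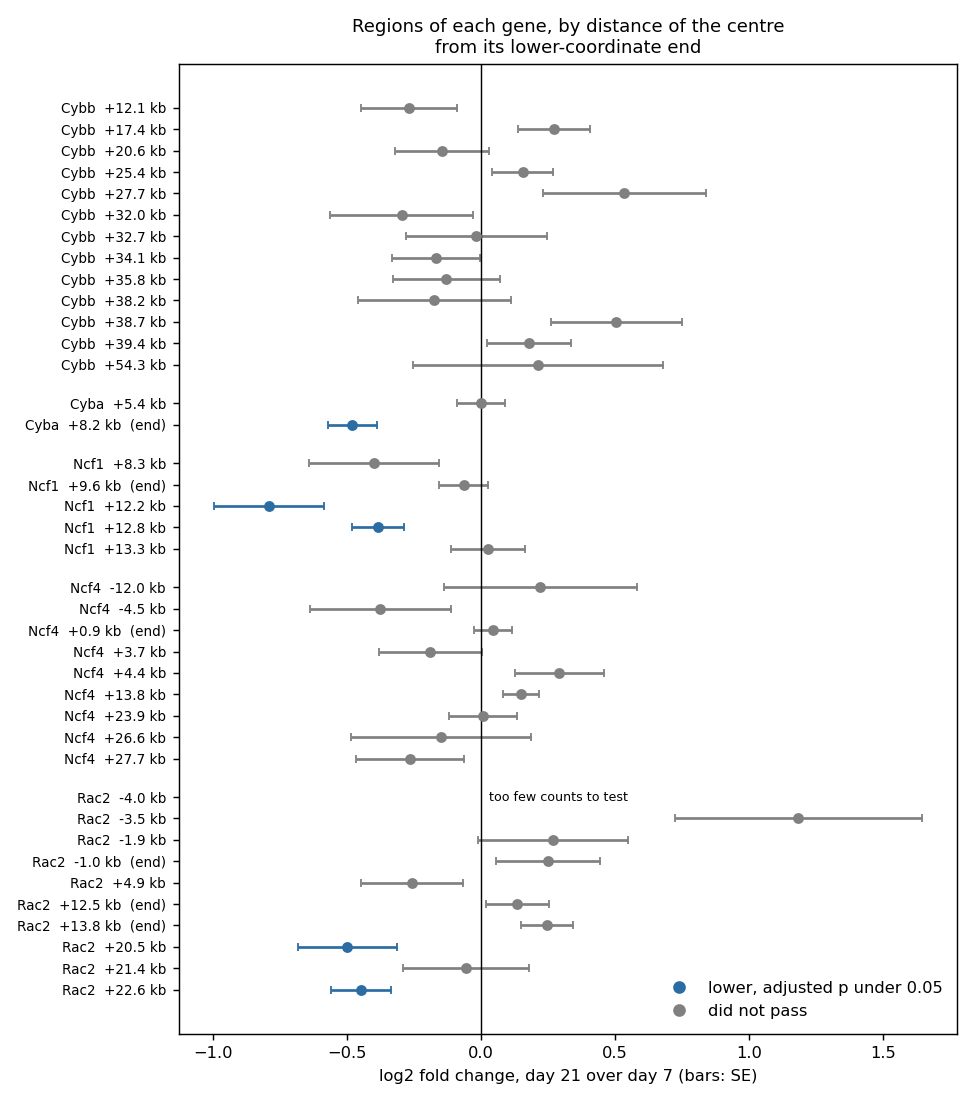
Log2 fold change of day 21 over day 7 (points) with its SE (bars) for each region, grouped by gene and named by the distance in kb of its centre from the gene's lower-coordinate end, with gene-end regions marked. The 5 blue points, 1 of Cyba, 2 of Ncf1 and 2 of Rac2, are the regions that passed the test, and all lie below 0.

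In bulk libraries such as these, a lower count from fewer cells with an open site and from less opening per cell cannot be told apart. Totals ran from 14021151 to 27737040 counts at day 21 and from 9440223 to 16063736 at day 7. The share of counts that fell at gene ends was 36.1% to 36.6% at day 21 and 37.9% to 39.3% at day 7. The median gene moved with it, by -0.09 at gene ends and 0.04 in distal regions on the log2 scale. Of 13569 genes tested at their ends, 911 were higher and 3338 lower, and this split became 1633 higher and 1645 lower when each library was scaled along the range of abundance (trended offsets). Of 14830 genes tested in distal regions, 2847 were higher and 1684 lower, and 2283 and 2273 with trended offsets. That scaling was fitted apart for regions, gene-end sums and distal sums, each on its own values. By its construction it centred each set on itself, with medians of -0.0042 at gene ends and 0.0030 in distal regions. The more even splits are therefore no test of the share of gene-end counts. The part of that share in the members' results was not tested. Values under the scaling are given with the gene-end and distal changes of the members.

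Among the membrane subunits, Cybb showed no change that passed the test. Its annotated gene body runs over 52.5 kb, at chrX:9435252-9487766, and 12 of its 13 regions lay inside it. The listed start site, at 9469324, lies 18.4 kb inside the nearer annotated end, so Cybb had no gene-end region and its start is described through the region that covers it, 9469116 to 9469519. That region had 7.95, 6.38, 6.72 and 5.30 CPM in the day 21 libraries and 6.64, 8.18, 6.07 and 8.33 CPM in the day 7 libraries. The groups overlapped, and the change was -0.17 ± 0.16 (SE, edgeR adjusted p = 0.529).

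The most accessible Cybb region was not the start site but a stretch inside the gene, 9460342 to 9460923, whose centre lay 8692 bp from the start site. It had 14.4, 18.9, 19.98 and 16.4 CPM at day 21 and 13.0, 15.9, 19.2 and 14.5 CPM at day 7. Per kb of region this was 29.9 CPM at day 21 and 27.0 CPM at day 7, and the start-site region had 16.3 CPM per kb at day 21 and 18.1 CPM per kb at day 7. Replicate 3 was the highest library on both days, and the days overlapped. The mean levels of the 13 regions ran from 1.03 to 17.4 CPM at day 21 and from 0.921 to 15.7 CPM at day 7. Their log2 changes ran from -0.30 to 0.53, and the lowest adjusted p was 0.144, at 9473828 to 9474115. There the libraries did not overlap, with 4.15, 2.71, 3.48 and 3.02 CPM at day 21 and 1.74, 2.44, 2.45 and 2.67 CPM at day 7. For Cybb the start-site region counts as distal, since it lies outside the gene-end windows. Summed over the distal regions with this one included, Cybb had 73.0, 69.1, 76.0 and 68.9 CPM at day 21 and 63.8, 68.4, 73.5 and 69.7 CPM at day 7. The sums overlapped, and the change was 0.06 ± 0.06 (edgeR adjusted p = 0.510). It was 0.012 with trended offsets, 0.015 without day 21 replicate 3, 0.023 without day 7 replicate 1 and 0.091 without day 7 replicate 3, with adjusted p from 0.332 to 0.905.

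Cyba, which encodes the membrane partner that stabilises NOX2, lost accessibility at its start. The gene lies at chr8:122424771-122432940, and its gene-end region, 122432372 to 122433511, covers the whole promoter stretch with the 2 GC boxes shown above. The region had 20.7, 17.4, 21.0 and 22.0 CPM at day 21 and 29.7, 26.6, 30.8 and 26.7 CPM at day 7. Every day 21 library was below every day 7 library. As the gene-end value of Cyba the change was -0.48 ± 0.09 (edgeR adjusted p = 2.8e-05), in a compartment where 24.6% of genes were called lower and 6.71% higher. With the trended offsets of the gene-end sums it was -0.38 (edgeR adjusted p = 8.9e-04). In the region fit the same region changed by -0.48, and by -0.52 with trended offsets (edgeR adjusted p = 5.3e-05 and 7.9e-06). The scaling thus moved the same counts in opposite directions, depending on the set it was fitted to. The same region also lies at an end of Mvd, which encodes mevalonate diphosphate decarboxylase of the sterol pathway, so the loss belongs to the shared stretch and cannot be assigned to 1 of the 2 genes. The region at the far end of Mvd, 122443280 to 122443863, averaged 47.2 ± 3.64 CPM at day 21 and 53.9 ± 7.51 CPM at day 7, a change of -0.19 ± 0.07 that did not pass (edgeR adjusted p = 0.067).

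The distal region of Cyba, 122429722 to 122430643, lies inside the gene, 2.76 kb from the start site. It had 24.3, 30.1, 27.2 and 23.8 CPM at day 21 and 25.0, 29.5, 23.6 and 27.3 CPM at day 7. The libraries overlapped throughout, and the change was -0.0007 ± 0.09 (edgeR adjusted p = 0.996), or -0.04 with trended offsets. The change at the end minus the change in the distal region, fitted with limma over all 11245 genes that have both, was -0.47 ± 0.14 for Cyba (adjusted p = 0.0113). This rule called 25.6% of those genes in either direction, and the median difference over all of them was -0.11. The call for Cyba was lost without day 21 replicate 2 (-0.34, adjusted p = 0.0916) and without day 7 replicate 3 (-0.38, adjusted p = 0.0590).

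**Figure D2:**
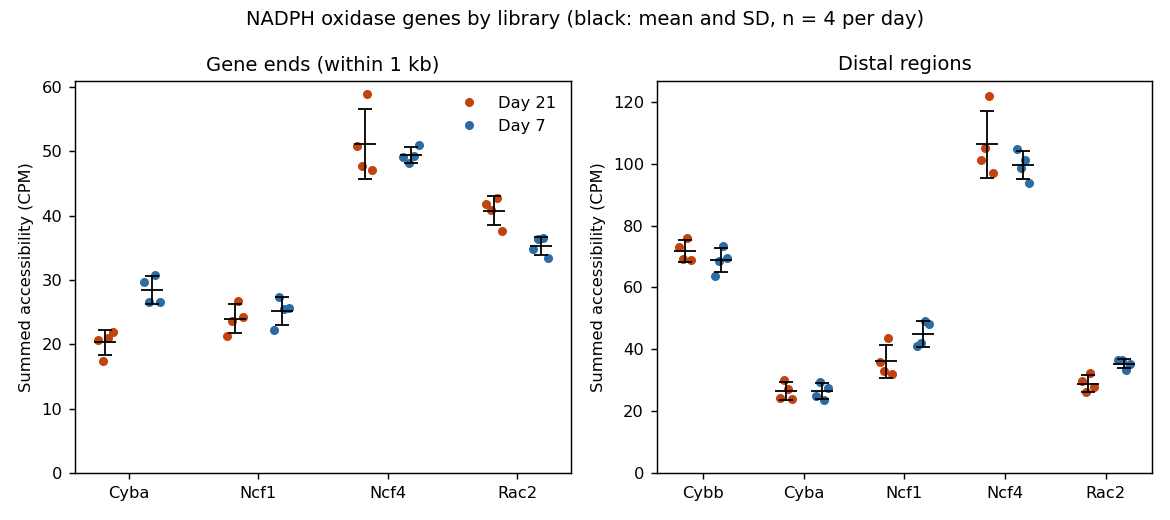
Summed accessibility in CPM of each gene at its ends (left panel) and in its distal regions (right panel), with each library as a point, day 21 left of day 7, and black marks for the mean and SD of 4 libraries. The days separate for Cyba and Rac2 at gene ends and for Rac2 in distal regions, and they overlap for the others. The distal sum of Cybb includes its start-site region.

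Among the cytosolic subunits, Ncf1 encodes the organiser that carries the complex to the membrane after it is phosphorylated. It was not called at its start site, and 2 regions beyond the start were lower at day 21. The gene lies at chr5:134220053-134229628. The gene-end region, 134229402 to 134229856, had 21.2, 23.6, 26.7 and 24.3 CPM at day 21 and 22.2, 27.3, 25.5 and 25.6 CPM at day 7. The groups overlapped and the gene-end change was -0.06 ± 0.09 (edgeR adjusted p = 0.618), with a sign that turned to 0.03 under trended offsets.

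A cluster of 3 regions lay 2.64 to 3.71 kb beyond the Ncf1 start, on the side away from the gene. The nearest, 134232154 to 134232381, had 3.02, 3.07, 4.30 and 2.63 CPM at day 21 and 4.32, 4.57, 6.24 and 7.02 CPM at day 7, and every day 21 library was below every day 7 library. It fell by 0.79 ± 0.21 on the log2 scale (edgeR adjusted p = 0.0033). The middle region, 134232567 to 134233039, had 21.4, 18.8, 23.8 and 17.4 CPM at day 21 and 22.8, 24.6, 27.9 and 29.9 CPM at day 7. It fell by 0.39 ± 0.10 (edgeR adjusted p = 0.0025), although day 21 replicate 3 was above day 7 replicate 1. The farthest, 134233175 to 134233500, had 9.78 ± 1.37 CPM at day 21 and 9.62 ± 0.872 CPM at day 7 and did not pass (0.02 ± 0.14, edgeR adjusted p = 0.931). Both calls held under all 14 alternative settings, with the highest adjusted p at 0.0463 for the nearest region and 0.0405 for the middle one.

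Summed over 4 distal regions, Ncf1 had 35.9, 32.9, 43.6 and 31.9 CPM at day 21 and 40.9, 42.0, 49.2 and 48.2 CPM at day 7. The distal sum fell by 0.33 ± 0.08 (edgeR adjusted p = 0.00109), against 11.4% of all genes called lower and 19.2% called higher in distal regions. With trended offsets the change was -0.37 (adjusted p = 2.5e-04). Day 21 replicate 3 was above 2 of the day 7 libraries. The change at the end minus the change in distal regions was 0.25 ± 0.11 and did not pass (limma adjusted p = 0.106), so end and distal regions of Ncf1 were not shown to differ. It passed without day 7 replicate 2 (0.32, adjusted p = 0.0410).

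Ncf4 encodes the cytosolic subunit that binds phosphatidylinositol 3-phosphate on phagosomes and keeps the oxidase active there. None of its 9 regions passed the test. The gene lies at chr15:78244164-78262582, and its strand is not in the gene table. Its gene-end region, 78244511 to 78245545, had 50.8, 47.7, 58.9 and 47.1 CPM at day 21 and 49.1, 48.2, 49.3 and 51.1 CPM at day 7. The day 7 libraries lay within the range of the day 21 libraries, whose highest was replicate 3, and the change was 0.04 ± 0.07 (edgeR adjusted p = 0.665). Without day 21 replicate 3 its sign turned, to -0.04, without day 21 replicate 2 or 4 it was 0.07 or 0.08, and with trended offsets it was 0.15 (adjusted p = 0.0760).

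A region inside Ncf4, 78257235 to 78258697, had the highest CPM of the 9, with 66.1, 74.2, 83.6 and 67.8 CPM at day 21 and 71.2, 65.6, 65.3 and 61.1 CPM at day 7. The groups overlapped, and the change of 0.15 ± 0.07 did not pass (edgeR adjusted p = 0.109), but it did with trended offsets (0.21, adjusted p = 0.0055) and without day 21 replicate 1 (0.19, adjusted p = 0.0414). Without day 21 replicate 3 the change was 0.06 (adjusted p = 0.577). Per kb this inner region had 49.9 CPM at day 21 and 45.0 CPM at day 7, and the gene-end region had 49.4 CPM at day 21 and 47.8 CPM at day 7. The distal sum of Ncf4 was 101, 105, 122 and 97.2 CPM at day 21 and 105, 98.5, 101 and 93.8 CPM at day 7. It did not pass (0.09 ± 0.06, edgeR adjusted p = 0.224), and neither did the difference between end and distal change (-0.05 ± 0.08, limma adjusted p = 0.703). With the trended offsets of the distal sums, which differ from those of the regions, the distal change was 0.037 (adjusted p = 0.650). It was 0.0082 without day 21 replicate 3 (adjusted p = 0.934).

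Rac2 encodes the haematopoietic Rac GTPase that switches the assembled oxidase on. Its summed values moved in opposite directions, higher at its ends and lower in distal regions. Of its 7 distal regions, 2 passed as lower. Over all genes 6.71% were called higher at their ends and 11.4% lower in distal regions. The gene lies at chr15:78559169-78572783, and its strand is not in the gene table. Summed over 3 gene-end regions, Rac2 had 41.9, 40.9, 42.7 and 37.6 CPM at day 21 and 34.9, 36.4, 36.5 and 33.5 CPM at day 7. Every day 21 library was above every day 7 library, and the gene-end value rose by 0.21 ± 0.07 (edgeR adjusted p = 0.0238). None of the 3 regions passed alone. The largest, 78572590 to 78573310, averaged 21.6 ± 1.76 CPM at day 21 and 18.2 ± 0.943 CPM at day 7 (0.25 ± 0.10, edgeR adjusted p = 0.066).

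The gene-end call of Rac2 was close to the threshold. It was lost without day 21 replicate 1 (0.20, adjusted p = 0.0511), without day 21 replicate 2 (0.20, adjusted p = 0.0606), without day 21 replicate 3 (0.17, adjusted p = 0.0832) and without day 7 replicate 4 (0.18, adjusted p = 0.0932). With trended offsets the change was 0.31 with an adjusted p of 4.1e-04.

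In distal regions Rac2 had 29.6, 26.0, 32.2 and 27.6 CPM at day 21 and 36.5, 36.4, 33.1 and 35.4 CPM at day 7. Every day 21 library was below every day 7 library, and the distal sum fell by 0.29 ± 0.08 (edgeR adjusted p = 0.0037), and by 0.33 with trended offsets (adjusted p = 0.0012). The change at the ends minus the change in distal regions was 0.49 ± 0.10 (limma adjusted p = 6.3e-04), and this call held in all 10 alternative settings. The median of that difference over all genes was -0.11, of the opposite sign.

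Beyond its higher-coordinate end Rac2 had 3 distal regions, and 2 of them were lower at day 21. The region 78581279 to 78582247, 8.98 kb from that end, had 11.8, 11.7, 12.8 and 12.6 CPM at day 21 and 17.3, 16.4, 15.8 and 17.4 CPM at day 7. Every day 21 library was below every day 7 library, and the region fell by 0.45 ± 0.11 (edgeR adjusted p = 0.0020). The region 78579508 to 78579853, 6.90 kb from the end, had 3.66, 4.81, 5.42 and 3.77 CPM at day 21 and 5.32, 7.44, 5.99 and 6.28 CPM at day 7. It fell by 0.50 ± 0.18 (edgeR adjusted p = 0.0456), with libraries that overlapped. The call was lost in 7 of 14 alternative settings, namely DESeq2 and leaving out replicate 1, 2 or 4 of day 21 or replicate 2, 3 or 4 of day 7, where adjusted p ran from 0.0502 to 0.159. The region between them, 78580424 to 78580803, did not pass (-0.06 ± 0.24, edgeR adjusted p = 0.905). Beyond the other end, the region 78555606 to 78555831 had 1.62, 1.02, 0.943 and 1.21 CPM at day 21 and 0.50, 0.53, 0.34 and 0.68 CPM at day 7. These counts were 4 to 34 per library, and the change of 1.19 ± 0.46 did not pass (edgeR adjusted p = 0.060), though it did with trended offsets (1.28, adjusted p = 0.0371). The region 78554996 to 78555244 had 0 to 23 counts per library and was not tested.

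Farther along the same stretch lie 7 regions of Cyth4, which encodes a cytohesin that activates ARF GTPases, and 3 of them were higher at day 21. The Cyth4 gene-end region 78596851 to 78597265 had 36.4, 39.5, 45.4 and 32.8 CPM at day 21 and 29.7, 27.3, 30.8 and 26.0 CPM at day 7, and rose by 0.43 ± 0.08 (edgeR adjusted p = 9.0e-05). Another 2 regions of Cyth4 on this stretch, 78594677 to 78595191 and 78599098 to 78599568, rose by 0.42 ± 0.09 and 0.37 ± 0.08 (edgeR adjusted p = 2.0e-04 and 7.3e-04). The other 4 did not pass, with changes of -0.06, 0.10 and 0.08 for those nearest to Rac2 and 0.12 for a gene-end region of Cyth4 (edgeR adjusted p from 0.321 to 0.856). On the other side of Rac2, a gene-end region of C1qtnf6, 78531858 to 78532534, fell by 0.32 ± 0.11 (edgeR adjusted p = 0.0318). The Cyth4 and C1qtnf6 regions fall outside the assignment to Rac2.

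**Figure D3:**
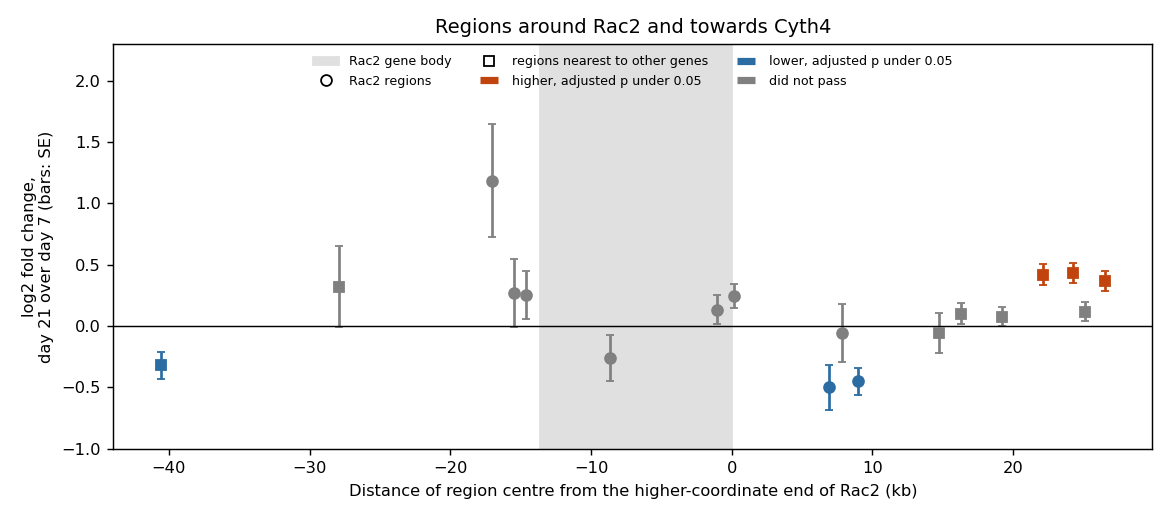
Log2 fold change of day 21 over day 7 with its SE (bars) for regions around Rac2, against the distance in kb of the region's centre from the higher-coordinate end of Rac2, with the gene body shaded, Rac2 regions as circles and regions nearest to other genes as squares. The 2 blue circles right of the gene are the regions that fell by 0.50 and 0.45, and the 3 red squares farther right are the Cyth4 regions that rose by 0.43, 0.42 and 0.37. The blue square left of the gene is the C1qtnf6 region that fell by 0.32.

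Per kb, the level at the start-site region or the most accessible end region gave an order among the genes. At day 21 Ncf1 had 52.6 ± 4.95, Ncf4 49.4 ± 5.24, Rac2 29.9 ± 2.44, Cyba 17.8 ± 1.76 and Cybb 16.3 ± 2.70 CPM per kb (SD, n = 4). At day 7 the order was the same, with Ncf1 at 55.3 ± 4.72, Ncf4 at 47.8 ± 1.15, Rac2 at 25.2 ± 1.31, Cyba at 24.9 ± 1.89 and Cybb at 18.1 ± 2.77 CPM per kb. The libraries of Ncf1 and Ncf4 overlapped on both days, those of Cyba and Cybb at day 21, and those of Rac2 and Cyba at day 7. The regions differ in width and, for Ncf4 and Rac2, are not known to hold the start.

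**Figure D4:**
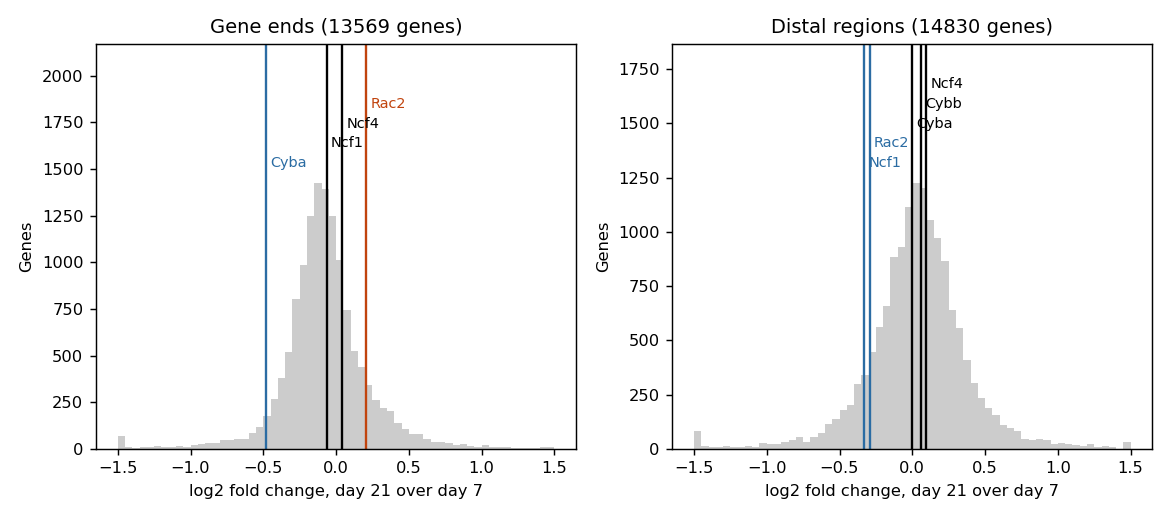
Number of genes by log2 fold change of day 21 over day 7 at gene ends (left, 13569 genes) and in distal regions (right, 14830 genes), with vertical lines at the oxidase genes, blue for lower, red for higher and black for those that did not pass. The outermost bars also hold genes with changes beyond 1.5 in size. Cyba at -0.48 lies left of most genes at gene ends, and Ncf1 and Rac2 at -0.33 and -0.29 lie left of most genes in distal regions.

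Of the 13 other oxidase subunits and partners, 0 of 9 tested genes were called at their ends, where Duox2 (-0.88 ± 0.41, edgeR adjusted p = 0.0910) and Rac1 (-0.10 ± 0.07, edgeR adjusted p = 0.278) had the smallest p. Without adjustment, edgeR's p was 0.0344 for Duox2 and 0.154 for Rac1. In distal regions, where 19.2% of all genes were called higher, 1 of 7 was higher. This was Noxa1, the activator of NOX1 outside phagocytes, at 23.9 ± 1.07 CPM at day 21 and 19.99 ± 1.510 CPM at day 7 (0.25 ± 0.09, edgeR adjusted p = 0.0334). With trended offsets 1 gene of this list was higher at its ends, and 0 were called in distal regions.

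Genes that switch the oxidase on or deliver it to the phagosome were called in both directions in each compartment. At gene ends 2 of 21 were higher and 4 lower, with a list median of -0.02. There 6.71% of all genes were higher and 24.6% lower. In distal regions 7 of 22 were higher and 1 lower, with a median of 0.09. There 19.2% of all genes were higher and 11.4% lower, so distal calls leaned higher over all genes as well. Syk, the kinase below Clec9a and Fc receptors, was higher in both, at 31.2 ± 2.73 CPM at day 21 and 22.1 ± 3.77 CPM at day 7 at its ends (0.50 ± 0.09, edgeR adjusted p = 2.1e-05). Its distal sum rose by 0.22 ± 0.05 (edgeR adjusted p = 3.0e-04). Dock2, an exchange factor that loads Rac with GTP in blood cells, had 380 ± 19.5 CPM at day 21 and 322 ± 7.47 CPM at day 7 in distal regions (0.24 ± 0.04, edgeR adjusted p = 1.4e-05). Prkca, a protein kinase C that can phosphorylate the organiser, fell at its ends to 5.70 ± 0.900 CPM at day 21, against 9.18 ± 0.798 CPM at day 7 (-0.67 ± 0.16, edgeR adjusted p = 7.0e-04). Under trended offsets 4 were higher and 1 was lower at the ends, and distal sums gave 6 higher against 3 lower.

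The vacuolar proton pump acidifies the phagosome. Of 17 of its genes tested at their ends 5 were lower and 0 higher, a share near the 24.6% of all genes called lower there, with a median of -0.09, against -0.09 over all genes, and under trended offsets 1 was lower. Tcirg1, a membrane subunit of the pump, had 9.69 ± 1.497 CPM at day 21 and 13.3 ± 1.017 CPM at day 7 at its ends (-0.45 ± 0.13, edgeR adjusted p = 0.0039), and Atp6v1g1 had 45.3 ± 0.779 CPM at day 21 and 53.0 ± 3.98 CPM at day 7 (-0.23 ± 0.07, edgeR adjusted p = 0.0065). In distal regions 1 of 16 was higher and 3 lower, where 19.2% of all genes were higher and 11.4% lower. The lower ones included Atp6v0e (-0.55 ± 0.11, edgeR adjusted p = 5.3e-05) and Atp6v0a1 (-0.41 ± 0.10, edgeR adjusted p = 7.9e-04).

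Among genes that remove superoxide and peroxide, 3 of 17 were lower and 0 higher in each compartment, where 24.6% of all genes were lower at gene ends and 11.4% in distal regions. At gene ends Sod1, the cytosolic superoxide dismutase, had 39.8 ± 1.13 CPM at day 21 and 49.0 ± 2.11 CPM at day 7 (-0.30 ± 0.07, edgeR adjusted p = 5.3e-04), and Cat, encoding catalase, changed by -0.32 ± 0.08 (edgeR adjusted p = 0.0019). In distal regions the peroxiredoxin gene Prdx6 changed by -0.48 ± 0.11 (edgeR adjusted p = 5.7e-04), and Gclc, the rate-limiting enzyme of glutathione synthesis, by -0.22 ± 0.05 (edgeR adjusted p = 0.0011). The list medians were -0.06 at gene ends and -0.05 in distal regions. Under trended offsets 3 were higher and 1 was lower at the ends, and distal sums gave 0 higher against 6 lower.

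The labelled cell type was checked against its markers. Over all genes, 6.71% were called higher and 24.6% lower at gene ends, and 19.2% and 11.4% in distal regions. Of 12 cDC1 markers, all but Itgae had a region at an end, with 2 higher and 1 lower of 11 tested, and summed accessibility of 525 to 570 CPM at day 21 and 514 to 547 CPM at day 7. With trended offsets 5 were higher and 1 lower at gene ends. In distal regions 6 of 11 were higher and 1 lower, and Xcr1 had no distal region. The distal sums of these markers were 1938 to 2073 CPM at day 21 and 1699 to 1784 CPM at day 7. Irf8 was the lower one at gene ends (38.2 ± 2.84 CPM at day 21 and 54.8 ± 5.91 CPM at day 7, -0.51 ± 0.07, edgeR adjusted p = 8.2e-08). Naaa and Wdfy4 were the higher ones there, and Naaa rose by 0.36 ± 0.06 (edgeR adjusted p = 3.3e-06). In distal regions Cadm1 rose by 0.50 ± 0.05 and Wdfy4 by 0.37 ± 0.04 (edgeR adjusted p = 2.2e-13 and 1.5e-09). Zbtb46 was the lower one in distal regions. Of the markers of mature dendritic cells, 8 of 10 were lower and 0 higher at gene ends, against 24.6% of all genes lower. Their gene-end sums were 288 to 318 CPM at day 21 and 395 to 430 CPM at day 7. In distal regions 5 of 9 were lower and 0 higher, against 11.4% of all genes lower. The part of mature dendritic cell markers in the members' results was not tested.

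Neutrophils and macrophages also use the phagocyte oxidase. The counts below stand beside 6.71% of all genes called higher and 24.6% lower at gene ends, and 19.2% and 11.4% in distal regions. At gene ends edgeR called 0 of 7 neutrophil markers, none of them at an unadjusted p under 0.05 either, with sums of 14.6 to 17.9 CPM at day 21 and 14.7 to 19.1 CPM at day 7, and S100a8, Mpo, Camp, Csf3r, Mmp9 and Ngp had no region there. In distal regions 2 of 9 were higher and 0 lower. Of 14 macrophage and monocyte markers 4 were higher and 0 lower at gene ends, with sums of 108 to 115 CPM at day 21 and 94.9 to 103 CPM at day 7, and 3 were higher and 2 lower in distal regions. These gene-end sums were higher in every day 21 library than in any day 7 library. The distal sums of these markers overlapped, at 446 to 453 CPM at day 21 and 414 to 472 CPM at day 7. Markers of T and NK cells were higher at 1 and lower at 3 of 8 gene ends, with sums of 56.1 to 67.0 CPM at day 21 and 59.2 to 73.6 CPM at day 7. EdgeR called 0 of 5 B cell markers there, also without adjustment, with sums of 26.1 to 27.6 CPM at day 21 and 26.6 to 32.7 CPM at day 7. Melanoma markers had 1 higher and 2 lower of 5, with sums of 162 to 174 CPM at day 21 and 165 to 178 CPM at day 7. In distal regions melanoma markers were lower at 3 of 5 and higher at 0, with sums of 165 to 182 CPM at day 21 and 185 to 198 CPM at day 7. T and NK cell markers were lower at 3 of 9 and higher at 1 there, with sums of 232 to 259 CPM at day 21 and 261 to 279 CPM at day 7. Both distal sums were lower in every day 21 library. The melanoma sum included Mitf, at 105 ± 1.29 CPM at day 21 and 116 ± 4.50 CPM at day 7. The T and NK sum included Klrb1c, at 82.2 ± 6.97 CPM at day 21 and 100 ± 4.31 CPM at day 7. At gene ends Mitf and Klrb1c were each called higher at day 21. The part of these markers in the members' results was not tested.

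The genes whose gene-end pattern was most like each member were found by Pearson's correlation of log2 CPM over the 8 libraries, as a description. For Cyba these were Ndufb7 (r = 0.990) and Tgds (r = 0.985), and for Rac2 they were Smtnl2 (r = 0.984) and Cfap157 (r = 0.971). For Ncf1 Ift80 is given (r = 0.970), and for Ncf4 they were Smpdl3b (r = 0.918) and Rhbdd2 (r = 0.916). None of these genes shares a region with its member, and the 8 libraries share scaling, day and depth.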

How the data were processed

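ATAC-seq was measured in 8 libraries whose labels gave the day and the replicate number. The authors deposited raw counts per region over 1 shared set of regions. The submitters' processing notes name the builds mm10 and GRCm38 and the tools MACS2 2.1.0.20150603, bedtools, SAMtools, Picard 1.65 and cutadapt 1.9. The sources used here do not give the aligner, read filters, transposase shift, peak merging or the counting base of coordinates. A shift would move counts by a few bases. Genes came from a RefSeq table of GRCm38.p6 without strand, so both annotated ends served as gene ends (1000 bp on each side).

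The test for regions, gene-end sums and distal sums was that of edgeR 4.0.16 under R 4.3.3 (filterByExpr, TMM, glmQLFit and glmQLFTest with day as the only term), and the difference between end and distal change with limma 3.58.1 on log2 of CPM plus 1. Adjusted p values are Benjamini-Hochberg values over all features, with 0.05 as the threshold. The SE is the change divided by the square root of F for edgeR. CPM values use TMM-scaled totals, and low counts (the range is given for the faintest regions) limit precision.

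Alternatives were DESeq2 1.42.0, RLE factors, limma-voom, trended offsets, no count filter, a replicate block, other windows and distances, another pseudocount and leaving out each library. No pairing by replicate number was detected. Same-numbered libraries correlated at 0.0041 to 0.0098 in their deviations from group means, and the best match of each day 21 library at 0.0083 to 0.0133. Correlations this low cannot exclude that libraries were handled in pairs. No 2 libraries matched within counting noise. The named genes were all members with all their regions, the 2 genes of every list with the lowest p in each compartment, and for each member the 2 most like genes. A few of these genes are not reported here but stay in the counts. The Cyth4, C1qtnf6, Mvd and Csf2rb2 regions, and marker genes named alone, were chosen after their values were seen. The members and lists were chosen with earlier results of these data known.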

Additional observations from a re-analysis of the deposited data

Results flagged for a closer look

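At the Rac2 region 78557131 to 78557433, day 7 replicate 2 had 2.76 CPM, and the other day 7 libraries had 1.68 to 1.83 CPM. The gap from this library to the nearest other one was 0.862 of the group's range, above Dixon's 95% critical value for 4 libraries. It was the only such case in the 96 groups of 4 libraries examined, and chance alone gives about 1 in 20.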

How the results depend on the processing

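Of 282 alternative values of members with a test, 259 kept the direction and the side of the threshold, 13 lost a call, 4 gained one and 6 changed sign, all 6 in values that had not passed. The 70 alternative counts of called features were within 1.5 times the counts reported. The gene-end change of Ncf1 was 0.032 with trended offsets. When 1 library was left out at a time, the gene-end changes ran from -0.044 to 0.081 for Ncf4 and from 0.17 to 0.24 for Rac2, and the distal change of Cyba from -0.077 to 0.051. The end minus distal difference ran from -0.55 to -0.34 for Cyba and from 0.19 to 0.32 for Ncf1. The cause of these shifts was not tested. Counts of called member regions were 4 to 7 in all alternatives against 5. With the replicate block, 23276 regions, 4603 gene ends, 4702 distal sums and 3009 end minus distal differences were called, against 23590, 4249, 4531 and 2875 without it. The block left 5 member regions called and changed no member's call, and since no pairing by number was detected its values are given only here. 1 of the 4 day 21 libraries correlated best with its own number. Depth limits the faintest regions, such as Rac2 78554996 to 78555244 with 0 to 23 counts. No alternative shows that a change that did not pass was absent.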

Other observations

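Just beyond the regions assigned to Ncf4, a region nearest to Csf2rb2, which encodes a beta chain of the mouse interleukin-3 receptor, had a larger change than any tested oxidase region. It was chosen after its values were seen. The region chr15:78273867-78274319, 11.5 kb from the end of Ncf4, had 0.844, 0.301, 0.472 and 0.640 CPM at day 21 and 4.40, 7.75, 4.55 and 3.67 CPM at day 7. Every day 21 library was below every day 7 library, and the region fell by 3.13 ± 0.31 on the log2 scale (edgeR adjusted p = 2.0e-12). The next region towards Csf2rb2, 78276294 to 78276549, averaged 1.86 ± 0.270 CPM at day 21 and 3.14 ± 0.440 CPM at day 7 (-0.77 ± 0.26, edgeR adjusted p = 0.0251). The third, 78278339 to 78278852, did not pass (-0.32 ± 0.18, edgeR adjusted p = 0.212). The Ncf4 region nearest to them, 78271641 to 78272042, averaged 3.86 ± 0.647 CPM at day 21 and 4.63 ± 0.657 CPM at day 7 and did not pass (-0.27 ± 0.20, edgeR adjusted p = 0.390).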
